A study of Mus musculus with 4 samples.

Results

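The genes described here encode the respiratory chain and ATP synthase of mitochondria, together with assembly factors whose symbols share their prefixes. They were chosen by symbol prefix (Ndufa, Ndufb, Ndufc, Ndufs, Ndufv, Sdha, Sdhb, Sdhc, Sdhd, Uqcr, Cox4, Cox5, Cox6, Cox7, Cox8, Atp5, mt-Nd, mt-Co, mt-Atp and mt-Cytb) and by a level of at least 5 CPM (UMI counts scaled to an equal total per library) in at least 1 library. Of 32285 genes in the tables, 111 matched by name and 105 passed, 92 of them encoded in the nucleus and 13 in the mitochondrial genome. The 92 nuclear genes comprised 37 of complex I, 4 of complex II, 8 of complex III, 14 of complex IV, 17 of complex V and 12 assembly factors. The 13 mitochondrial genes comprised 7 of complex I, 1 of complex III, 3 of complex IV and 2 of complex V. The genes just inside the limit were the assembly factors Ndufaf1, at 15.4 CPM in its highest library, and Ndufaf5, at 17.2 CPM. The 6 that missed it were all isoform subunits of complex IV, from Cox7a1 at 3.74 CPM and Cox6b2 at 3.56 CPM down to Cox4i2 at 0.822 CPM, Ndufa4l2 at 0.674 CPM, Cox8b at 0.00714 CPM and Cox8c, which had no UMI in any library.

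The cells came from brains of female C57BL/6 mice carrying intracranial implants of EO771, a mammary cancer line of mouse origin made to express GFP, after 14 days of SCDi (an inhibitor of stearoyl-CoA desaturase, compound and dose not given in the labels) or of vehicle. For each treatment the brains of 3 mice went into 1 pool, from which live tumour cells (GFP+, CD45-) and live immune cells (CD45+, GFP-) were sorted, and each sort gave 1 droplet library of 3′ single-cell RNA counts. The 4 groups are therefore SCDi tumour, vehicle tumour, SCDi immune and vehicle immune, with 1 library each, and no test across animals was possible. Every value below is a description of these 4 libraries. The SCDi tumour library held 9034 barcodes with a median of 36681 UMIs, and the vehicle tumour library 7713 with 41124. The SCDi immune library held 6777 barcodes with a median of 16548 UMIs, and the vehicle immune library 7332 with 15294. Between 9 and 23 barcodes were shared by any pair of libraries.

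The respiratory chain passes electrons from NADH through complex I, and from succinate through complex II, to ubiquinone, then through complex III and cytochrome c to complex IV, which reduces oxygen. Complexes I, III and IV pump protons across the inner mitochondrial membrane, and complex V uses the gradient to make ATP. Complex II is built from nuclear genes alone, while the other complexes combine nuclear subunits with the core subunits that the mitochondrial genome encodes, so their supply depends on transcription in both compartments. Stearoyl-CoA desaturase makes monounsaturated fatty acids in the endoplasmic reticulum and is not part of the chain.

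Cells were assigned by how many distinct marker genes of a type had a UMI. Tumour cells (8575 in SCDi, 7270 in vehicle) had a UMI of the epithelial keratin Krt8 and none of Ptprc, which encodes CD45. They also had fewer than 4 endothelial, fewer than 4 fibroblast or pericyte and fewer than 3 macrophage markers. In the tumour cells, the 7 epithelial markers summed to 1422 CPM in SCDi and 1506 CPM in vehicle, and the 8 T cell markers to 0.759 CPM in SCDi and 0.521 CPM in vehicle. The gate partly fixed both sums, since Krt8 is among the epithelial markers and cells with Ptprc were left out. Of the leukocyte types, 10 had at least 50 cells in both immune libraries and were compared. They were macrophages, monocytes, cells with both the macrophage and the monocyte marker set, microglia, type 2 conventional dendritic cells (cDC2), migratory dendritic cells, plasmacytoid dendritic cells (pDCs), T cells, NK cells and B cells. The types of 1 sort share a library, so they are not independent of each other. All 8 macrophage markers were also detected in every other leukocyte type, from a sum of 294 CPM in SCDi migratory dendritic cells to 27612 CPM in SCDi microglia.

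Among the nuclear genes, RefSeq held promoter windows (250 bases before to 50 after the start, GRCm38.p6) for 76 of the 92, with 81 windows. The letters CCGGAAG, a core of sites for ETS factors such as GABP, stood on either strand in 27.2% of these windows and in 8.86% of all 32817 RefSeq windows of that length. The letters GCGCATGCGC, a site of NRF1, a known regulator of nuclear respiratory genes, stood in 8.64% of the members' windows and 0.966% of all windows, and TATAAA in 11.1% and 13.6%. CpG dinucleotides had a median of 20 per window among the members and 7 among all windows. The 200 bases before the RefSeq start are shown for Cox7b2 and Cox7b, the isoform pair with the sharpest difference between cell types below, and for Atp5k, the complex V gene that led in 4 leukocyte types. Capitals mark CpG dinucleotides. The RefSeq start of Atp5k lies 49 bases inside the gene as GENCODE M21 has it, so the last 49 bases of its stretch fall within that gene.
Cox7b2 (GRCm38.p6, chr5:71548206-71548405, minus strand): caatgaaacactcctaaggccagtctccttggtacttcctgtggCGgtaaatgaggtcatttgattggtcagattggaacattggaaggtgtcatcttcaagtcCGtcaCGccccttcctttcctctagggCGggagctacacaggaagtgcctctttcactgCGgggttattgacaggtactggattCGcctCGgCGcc
Cox7b (GRCm38.p6, chrX:106015500-106015699, plus strand): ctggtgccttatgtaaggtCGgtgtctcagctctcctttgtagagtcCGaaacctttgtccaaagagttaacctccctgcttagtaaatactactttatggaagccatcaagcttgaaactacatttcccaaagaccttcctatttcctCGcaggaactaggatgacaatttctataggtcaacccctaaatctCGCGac
Atp5k (GRCm38.p6, chr5:108434400-108434599, minus strand): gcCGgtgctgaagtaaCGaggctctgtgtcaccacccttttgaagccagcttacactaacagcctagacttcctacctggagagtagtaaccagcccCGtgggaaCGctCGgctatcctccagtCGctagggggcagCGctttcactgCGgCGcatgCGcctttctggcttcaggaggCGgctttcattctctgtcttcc
Within these stretches Cox7b2 had 8 CpG dinucleotides, Cox7b had 5 and Atp5k had 11. The whole window of Atp5k held both CCGGAAG and GCGCATGCGC, that of Cox7b2 held TATAAA only, and that of Cox7b held none of the 3.

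In tumour cells the levels of the chain differed little between SCDi and vehicle, and the nuclear and the mitochondrial genes leaned in opposite directions. The nuclear genes summed to 24400 CPM in SCDi and 23591 CPM in vehicle, a log2 ratio of 0.05. The mitochondrial genes summed to 23602 CPM in SCDi and 25098 CPM in vehicle, a log2 ratio of -0.09. Of the 92 nuclear genes, 91 had at least 5 CPM in either library, and 62 of these were higher in SCDi, against 41.7% of all 9478 genes at that level. Their median log2 ratio was 0.05, against -0.04 over all these genes. At 1.2-fold or more, 2 of the 91 were higher, against 5.6% of all genes, and 0 were lower, against 10.5%. Counts and medians of members in each cell type below likewise cover the members at 5 CPM or more in either library of that type, and sums cover all members. Of the 13 mitochondrial genes 4 were higher, with a median log2 ratio of -0.06. Ratios are of CPM summed over cells, with 0.5 counts added, and the 95% intervals given below are exact conditional binomial intervals that cover counting error only. They say nothing of the spread between mice.

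In all 11 cell types a smaller share of the longest nuclear genes than of the shortest was higher in SCDi, and the nuclear members are short. The longest protein-coding transcript had a median of 955 bases over 91 nuclear members with one, and of 3116 bases over 9231 nuclear genes at the floor in tumour cells. In tumour cells, 70.2% of the 252 nuclear genes under 800 bases were higher in SCDi, 67.8% of those from 800 to under 1500, 51.0% from 1500 to under 3000, 34.0% from 3000 to under 5000, and 20.8% of longer ones. NK cells had the flattest order, with 55.6% of the shortest and 49.3% of the longest genes higher. Of the members, 23 of 37 under 800 bases, 20 of 27 from 800 to under 1500, 13 of 19 from 1500 to under 3000 and 5 of 7 from 3000 to under 5000 were higher. When the median of its length class was subtracted from each gene's ratio, 47 of 90 nuclear members lay above 0 in tumour cells, with a median of 0.00. In macrophages the same subtraction left 70 of 90 members above 0, with a median of 0.08. The length classes were chosen after the data were seen, and the part of transcript length in the results was not tested.

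**Figure D1:**
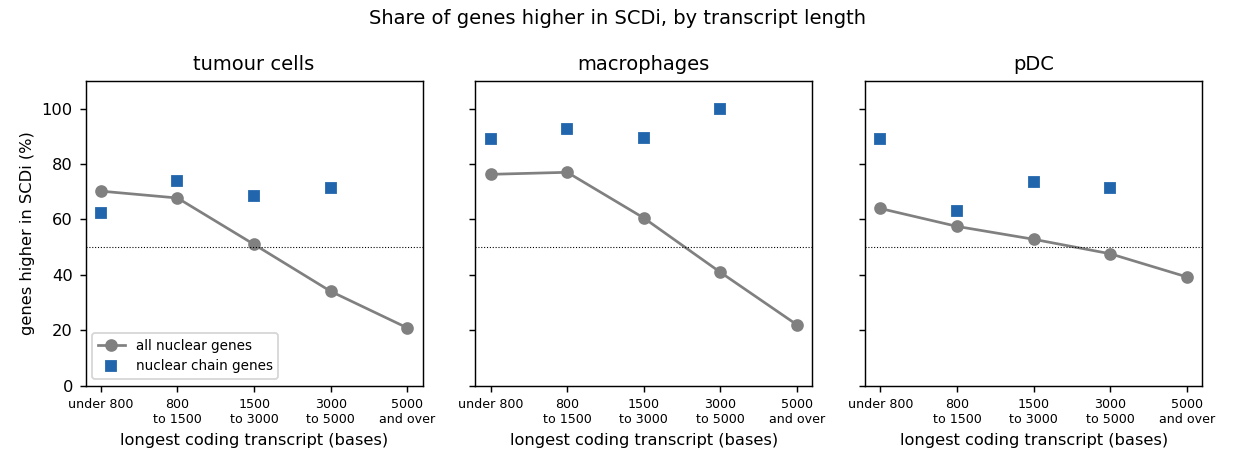
Percent of genes higher in SCDi than in vehicle (y axis) by class of longest protein-coding transcript in bases (x axis), for all nuclear genes at 5 CPM or more (grey line) and for the nuclear respiratory chain genes (blue squares), in tumour cells, macrophages and pDCs; the dotted line is at 50%. In tumour cells the members lie near the grey line in the 2 shortest classes, 62.2% against 70.2% and 74.1% against 67.8%, and above it in the next 2, while in macrophages they lie above it in all 4 classes that hold members.

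Complex I takes electrons from NADH, and in tumour cells its 37 nuclear genes were split, 22 higher in SCDi with a median log2 ratio of 0.04. Ndufb10, an accessory subunit of the membrane arm, had 163 CPM in SCDi and 139 CPM in vehicle, with a log2 ratio of 0.24 (0.22 to 0.26). Ndufs8, a core subunit with iron-sulfur clusters, had 90.4 CPM in SCDi and 77.0 CPM in vehicle, with a log2 ratio of 0.23 (0.21 to 0.26). At the low end, the accessory subunit Ndufa13 had 281 CPM in SCDi and 305 CPM in vehicle, a log2 ratio of -0.12 (-0.13 to -0.10). Ndufa7 followed, with 432 CPM in SCDi and 455 CPM in vehicle, a log2 ratio of -0.07 (-0.08 to -0.06). No complex I gene differed by 1.2-fold. Ndufa13 lies on chromosome 8, where 531 genes had a median log2 ratio of -0.13 in tumour cells and where the 3 members (Ndufa13, Ndufb7 and Cox4i1) had a median of -0.08. Relative to that chromosome's median, Ndufa13 had a ratio of 0.02.

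Complex II, succinate dehydrogenase, links the tricarboxylic acid cycle to the chain and was the 1 nuclear group with a median below 0, at -0.04. Its membrane anchor Sdhd had 92.3 CPM in SCDi and 87.6 CPM in vehicle (log2 ratio 0.08, 0.05 to 0.10). Sdha, the flavoprotein that oxidises succinate, had 62.2 CPM in SCDi and 67.8 CPM in vehicle (log2 ratio -0.12, -0.15 to -0.10). The iron-sulfur subunit Sdhb had 140 CPM in SCDi and 146 CPM in vehicle, a log2 ratio of -0.06 (-0.08 to -0.04). The interval of the other anchor, Sdhc, included 0 (91.1 CPM in SCDi, 92.5 CPM in vehicle).

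Complex III hands electrons from ubiquinol to cytochrome c, and 7 of its 8 nuclear genes were higher in SCDi tumour cells, with a median log2 ratio of 0.09. The small subunit Uqcr11 had 311 CPM in SCDi and 280 CPM in vehicle, a log2 ratio of 0.15 (0.14 to 0.17). Uqcrq, another small subunit, had 780 CPM in SCDi and 716 CPM in vehicle, a log2 ratio of 0.12 (0.12 to 0.13). Uqcr10 had nearly equal levels, 533 CPM in SCDi and 530 CPM in vehicle. The core protein Uqcrc2 was the 1 gene with a ratio below 0, at 78.3 CPM in SCDi and 82.6 CPM in vehicle (log2 ratio -0.08, -0.10 to -0.05). Relative to their length classes, 4 of the 8 lay above 0.

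Complex IV, cytochrome c oxidase, showed no common direction in tumour cells, with 7 of 13 nuclear genes higher and sums of 6027 CPM in SCDi and 5989 CPM in vehicle. Ndufa4, first assigned to complex I and now counted as a subunit of complex IV, had 409 CPM in SCDi and 363 CPM in vehicle, a log2 ratio of 0.17 (0.16 to 0.18). Cox5a had 672 CPM in SCDi and 609 CPM in vehicle, a log2 ratio of 0.14 (0.13 to 0.15). The lowest ratios were those of Cox7b2 at -0.14 (-0.17 to -0.11; 57.8 CPM in SCDi, 63.6 CPM in vehicle) and Cox8a at -0.11 (-0.12 to -0.10; 581 CPM in SCDi, 628 CPM in vehicle). The remaining gene, Cox6a2, did not reach 5 CPM in these cells, with 90 UMIs (0.274 CPM) in SCDi and 54 UMIs (0.177 CPM) in vehicle.

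Complex V is the ATP synthase, and all 17 of its nuclear genes were higher in SCDi tumour cells, while both of its mitochondrial genes were lower. The nuclear genes stood close together, with log2 ratios from 0.01 to 0.25 and a median of 0.07. Atp5g1, 1 of 3 genes for the proton-carrying c subunit of the rotor, had 418 CPM in SCDi and 350 CPM in vehicle, a log2 ratio of 0.25 (0.24 to 0.26). The other c subunit genes had smaller ratios, with Atp5g2 at 706 CPM in SCDi and 682 CPM in vehicle (0.05) and Atp5g3 at 246 CPM in SCDi and 234 CPM in vehicle (0.07). Atp5k, the e subunit at the dimer interface, had 101 CPM in SCDi and 86.4 CPM in vehicle, a log2 ratio of 0.22 (0.20 to 0.24). At the low end stood the small subunits Atp5md at 0.01 (342 CPM in SCDi, 339 CPM in vehicle) and Atp5l at 0.03 (584 CPM in SCDi, 573 CPM in vehicle). Relative to nuclear genes of like length, 12 of the 17 lay above 0.

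Among the 12 assembly factors, which help build complexes I and II without staying in them, 8 were higher in SCDi tumour cells and 2 by at least 1.2-fold. Ndufaf4, a complex I assembly factor, had 89.3 CPM in SCDi and 72.2 CPM in vehicle, a log2 ratio of 0.31 (0.28 to 0.33). Sdhaf1, which helps insert iron-sulfur clusters into Sdhb, had 45.9 CPM in SCDi and 37.3 CPM in vehicle, a log2 ratio of 0.30 (0.26 to 0.33). The complex II factor Sdhaf4 had 39.0 CPM in SCDi and 41.9 CPM in vehicle, a log2 ratio of -0.10 (-0.14 to -0.07). Ndufaf2 did not differ beyond counting error (194 CPM in SCDi, 196 CPM in vehicle).

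**Figure D2:**
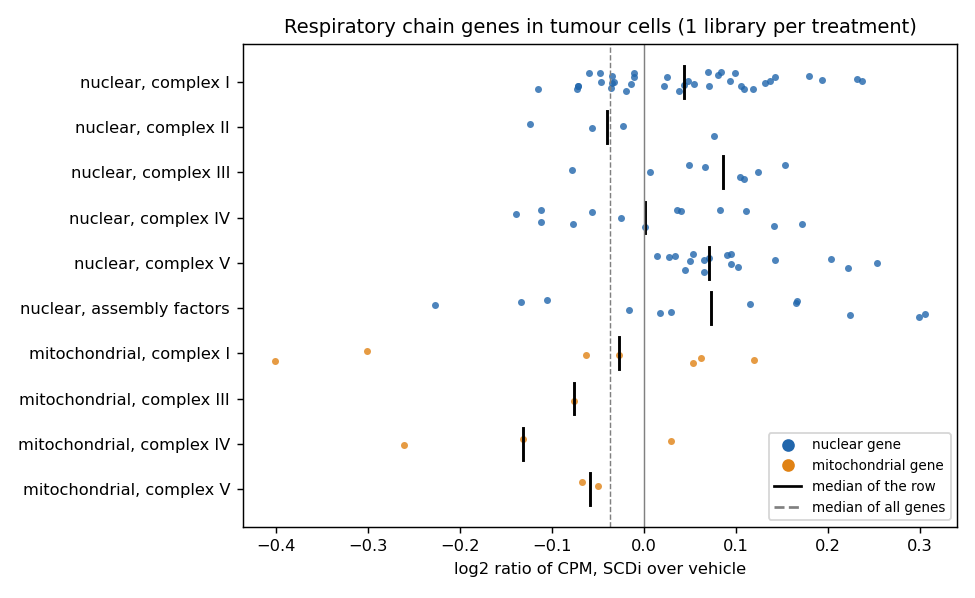
Log2 ratio of CPM, SCDi over vehicle (x axis), of each respiratory chain gene at 5 CPM or more in tumour cells, in rows by genome and complex; blue points are nuclear genes, orange points mitochondrial genes, black bars row medians, the solid line 0 and the dashed line the median of all genes at -0.04. All 17 nuclear complex V genes lie right of 0, and the mitochondrial rows have medians from -0.13 to -0.03.

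The mitochondrial genome is transcribed as long precursors that are cut into shorter transcripts, yet its genes did not share 1 ratio in tumour cells. mt-Nd5, which encodes a proton-pumping core subunit of complex I, had the lowest ratio, with 463 CPM in SCDi and 612 CPM in vehicle (log2 ratio -0.40, -0.41 to -0.39). mt-Nd6, the 1 member encoded on the other strand, had 21.1 CPM in SCDi and 26.0 CPM in vehicle (-0.30, -0.35 to -0.25). Of the 3 complex IV core subunits, mt-Co3 had 3109 CPM in SCDi and 3724 CPM in vehicle (-0.26), mt-Co1 had 5142 CPM in SCDi and 5631 CPM in vehicle (-0.13), and mt-Co2 had 3443 CPM in SCDi and 3372 CPM in vehicle (0.03). mt-Nd1 had the highest ratio, 0.12 (0.11 to 0.13), with 952 CPM in SCDi and 877 CPM in vehicle. The ratios of the other 7 genes lay between -0.08 (mt-Cytb, the core of complex III) and 0.06 (mt-Nd4l). Some of these genes overlap, by 43 bases for mt-Atp8 and mt-Atp6, 7 for mt-Nd4l and mt-Nd4 and 1 for mt-Atp6 and mt-Co3. A read at an overlap can fit both genes, so the counts of overlapping genes are not fully separate measures.

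The mitochondrial ratios in tumour cells depended on which cells were summed. Cells with no UMI of the proliferation genes Mki67 or Top2a made up 1272 of the SCDi and 1611 of the vehicle tumour cells, or 14.8% in SCDi and 22.2% in vehicle. In those cells 8 of the 13 mitochondrial genes were higher in SCDi, with a median log2 ratio of 0.04, although the sum remained lower (25776 CPM in SCDi, 26085 CPM in vehicle). In cells with either gene 4 of 13 were higher, with a median of -0.07. The nuclear genes did not change in this way, with 60 of 91 higher in cells without and 63 of 91 in cells with Mki67 or Top2a. Barcodes with over 15% mitochondrial UMIs were left out, and these made up 1.54% of the SCDi and 3.37% of the vehicle tumour barcodes, so the filter took out more vehicle than SCDi barcodes by the very genes described. With all deposited barcodes kept, 4 of the 13 genes were higher.

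Some other gene groups, mitochondrial or not, from lists chosen with earlier results of these data known, differed more than the chain did. In tumour cells 71 of 78 mitochondrial ribosomal protein genes were higher in SCDi, with a median log2 ratio of 0.17, and 69 lay above the median of their length class. Mrpl18 had 217 CPM in SCDi and 171 CPM in vehicle (0.34), and Mrpl24 was lowest with 34.1 CPM in SCDi and 38.0 CPM in vehicle (-0.16). Mrpl47 was second highest at 0.33 and Mrpl23 second lowest at -0.15. Of 22 hypoxia and glycolysis genes 3 were higher, with a median of -0.25, from glycolytic Gapdh (4244 CPM in SCDi, 4145 CPM in vehicle, 0.03) to the hypoxia-induced peptide gene Adm (6.53 CPM in SCDi, 16.0 CPM in vehicle, -1.29), with glycolytic Eno1 at 0.02 and hypoxia-induced Ankrd37 at -0.89. Of 12 mitophagy genes 2 were higher, with a median of -0.16, and the receptor Bnip3, itself induced by hypoxia, was lowest with 12.8 CPM in SCDi and 30.1 CPM in vehicle (-1.23). The other 3 at the ends of that list were Phb2 at 0.11, Fundc1 at 0.05 and Calcoco1 at -0.46.

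The remaining lists stood near 0 in tumour cells. The 18 tricarboxylic acid cycle genes had a median of 0.02 (10 higher), from Ogdh at 0.17 (53.1 CPM in SCDi, 47.2 CPM in vehicle) to Suclg1 at -0.12 (263 CPM in SCDi, 285 CPM in vehicle), with Idh3a at 0.11 and Suclg2 at -0.09. Electron carriers and ubiquinone synthesis genes were higher in 9 of 19, with Cyc1, the cytochrome c1 of complex III that the prefixes do not cover, at 257 CPM in SCDi and 224 CPM in vehicle (0.20), Coq10b at 0.23, Coq8b at -0.14 and Gpd2 at -0.18. Genes of mitochondrial transcription and RNA stability were higher in 15 of 27, with a median of 0.03, from Fastkd3 at 0.30 and Fastkd2 at 0.25 to Tefm and Pnpt1, both at -0.08. Assembly and cofactor genes outside the prefixes were higher in 24 of 35, with a median of 0.07, or of 0.01 relative to length classes, from Coa7 at 0.40 (21.0 CPM in SCDi, 15.9 CPM in vehicle) and Coa6 at 0.25 to Atpaf1 at -0.15 and Cox15 at -0.16. Of 9 nuclear regulators of respiratory genes 1 was higher, against 41.7% of all genes. It was Tfe3 at 0.09, with Pprc1 next at -0.01, and the lowest were Gabpa at -0.07 and Myc at -0.32 (190 CPM in SCDi, 237 CPM in vehicle). Relative to length classes, 5 of the 9 regulators lay above 0, with a median of 0.02.

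In most leukocyte types the nuclear genes were higher in SCDi more often than genes in general. In macrophages (1401 cells in SCDi, 1406 in vehicle) 83 of 91 were higher, against 48.1% of all genes, and the sum was 19688 CPM in SCDi and 17395 CPM in vehicle, a log2 ratio of 0.18. At 1.2-fold or more, 14 were higher, against 8.39% of all genes, and 0 were lower, against 14.8%. The direction was shared by all 5 complexes, with 35 of 37 complex I, 4 of 4 complex II, 7 of 8 complex III, 12 of 13 complex IV and 17 of 17 complex V genes higher. In cells with both the macrophage and monocyte sets (813 cells in SCDi, 659 in vehicle), 80 of 90 were higher, against 47.9% of all genes, with a median log2 ratio of 0.14. At 1.2-fold, 8 were higher, against 7.88% of all genes, and 1 lower, against 13.9%. Monocytes (1322 cells in SCDi, 1239 in vehicle) had 70 of 86 higher, against 46.5%, with a median of 0.09, and at 1.2-fold 7 were higher, against 8.43%, and 0 lower, against 11.1%. Relative to length classes, 65 of 89 genes lay above 0 in cells with both sets and 55 of 85 in monocytes.

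The lymphoid and dendritic types were spread over a wide range. T cells (195 in SCDi, 307 in vehicle) had 76 of 90 nuclear genes higher, against 45.1% of all genes, and the highest median, 0.20. At 1.2-fold 32 were higher, against 20.7%, and 2 lower, against 27%. The share of nuclear members in the median T cell was nearly equal, at 1.62% in SCDi and 1.64% in vehicle, while the summed share, in which cells with more UMIs weigh more, was 2.16% in SCDi and 1.92% in vehicle. With CPM averaged cell by cell, 69 of 90 were higher in T cells. pDCs (82 in SCDi, 104 in vehicle) had 70 of 91 higher, against 48.9%, with a median of 0.16, and at 1.2-fold 31 were higher, against 22.5%, and 7 lower, against 26.5%. cDC2 (122 in SCDi, 170 in vehicle) had 60 of 91 higher, against 54.1%, with a median of 0.11, or of 0.02 relative to length classes, and at 1.2-fold 21 were higher, against 27%, and 5 lower, against 20.9%. NK cells (137 in SCDi, 152 in vehicle) had 56 of 91 higher, against 52%, and B cells (101 in SCDi, 105 in vehicle) had 55 of 90, against 47.4%, with medians of 0.04 in both. At 1.2-fold 14 were higher in NK cells, against 26.6%, and 9 lower, against 23.2%, while in B cells 17 were higher, against 27.1%, and 7 lower, against 30.9%. Migratory dendritic cells (227 in SCDi, 434 in vehicle) had 45 of 88 higher, against 41.9%, and a median of 0.00, with 8 higher at 1.2-fold, against 13.8%, and 6 lower, against 22.3%. After subtraction of the length class medians, 40 of 89 genes lay above 0 in B cells, 41 of 87 in migratory dendritic cells, 48 of 90 in NK cells, 59 of 89 in T cells and 62 of 90 in pDCs. In cDC2 and in NK cells, 3 of the genes counted reached 5 CPM in 1 library only.

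Microglia (422 in SCDi, 319 in vehicle), the resident macrophages of the brain, had 57 of 91 nuclear genes higher, against 44.3% of all genes, with a median of 0.04. At 1.2-fold 5 were higher, against 8.57%, and 0 lower, against 13.9%. The share of UMIs in the median microglial cell was 1.07% in SCDi and 1.18% in vehicle, in the opposite order to the summed share of 1.53% in SCDi and 1.48% in vehicle. With CPM averaged cell by cell, 37 of 91 were higher. The 4 complex II genes had log2 ratios from -0.12 to -0.05 in microglia, all with intervals that included 0, and from 0.06 to 0.20 in macrophages, a contrast that was not tested.

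**Figure D3:**
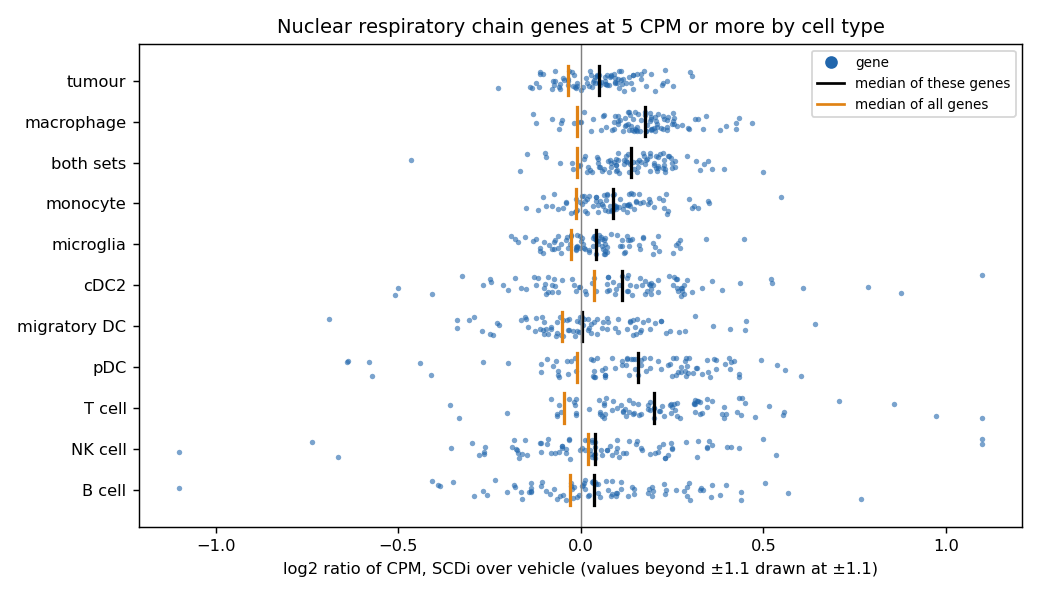
Log2 ratio of CPM, SCDi over vehicle (x axis), of the nuclear respiratory chain genes at 5 CPM or more (blue points) in 11 cell types; black bars are their medians and orange bars the medians of all genes in that type. The black bar lies right of the orange bar in each type, by the most in T cells (0.20 against -0.05) and by little in NK cells (0.04 against 0.02).

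Of the nuclear genes, 13 were higher in SCDi in all 10 leukocyte types, and 0 were lower in all. They were Ndufa3, Ndufa7, Ndufb1-ps and Ndufc1 of complex I, Uqcr10, Uqcr11, Uqcrb and Uqcrq of complex III, and Atp5g1, Atp5j2, Atp5k, Atp5md and Atp5mpl of complex V. The number of all genes higher in all 10 types was not counted, and these types share the same pair of immune libraries. Atp5k led. Its lowest ratio in any leukocyte type was 0.30 and its median over them 0.42, and among nuclear members at 20 CPM or more it had the highest ratio in macrophages, in cells with both sets, in monocytes and in migratory dendritic cells. Its levels were 218 CPM in SCDi and 161 CPM in vehicle macrophages (log2 ratio 0.43, 0.38 to 0.49), 160 CPM in SCDi and 109 CPM in vehicle monocytes (0.55, 0.47 to 0.63) and 138 CPM in SCDi and 100 CPM in vehicle migratory dendritic cells (0.45, 0.27 to 0.63). The gene (ENSMUSG00000050856) lies on chromosome 5 from 108433244 to 108434448 (mm10), and at 371 bases its longest coding transcript is the shortest among the nuclear members.

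A few nuclear genes went the other way. Cox7a2l, known for its part in supercomplexes of complexes III and IV, was higher in 1 of the 10 types and had the lowest ratio among nuclear members at 20 CPM or more in 3. It had 164 CPM in SCDi and 179 CPM in vehicle macrophages (-0.12, -0.18 to -0.07) and 247 CPM in SCDi and 317 CPM in vehicle T cells (-0.36, -0.48 to -0.24). Uqcrh, the hinge protein of complex III, was also higher in 1 of 10, with ratios from -0.20 to 0.01, although its longest coding transcript has only 547 bases. Sdhaf2, which helps attach FAD to Sdha, was lowest at that level in NK cells (31.0 CPM in SCDi, 51.9 CPM in vehicle, -0.74), in pDCs (23.0 CPM in SCDi, 36.2 CPM in vehicle, -0.64) and in cDC2 (28.1 CPM in SCDi, 37.4 CPM in vehicle, -0.41). These rested on 30 to 114 UMIs per library, and the intervals were -1.34 to -0.18 in NK cells and -0.87 to 0.03 in cDC2.

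Among nuclear members at 20 CPM or more, several others stood at the ends of the range, some of them on few UMIs. Ndufaf4 led in T cells, with 135 UMIs (36.2 CPM) in SCDi and 91 UMIs (18.4 CPM) in vehicle (0.97, 0.58 to 1.38), and was also the leading assembly factor in tumour cells. Ndufaf8 led in cDC2 (0.61, 0.20 to 1.02) and in NK cells (0.53, 0.02 to 1.05), Ndufaf3 in microglia (0.45, 0.19 to 0.71), Ndufaf2 in pDCs (0.60, -0.09 to 1.31) and Uqcrc1 in B cells (0.57, 0.13 to 1.02). Ndufs3, a core subunit of complex I, was lowest in microglia (-0.17) and in migratory dendritic cells (-0.34), and Ndufs7 in B cells (-0.41). Uqcrfs1, the Rieske protein, was lowest in monocytes (-0.15, -0.23 to -0.07), on 2545 UMIs in SCDi and 2684 in vehicle. The interval of Ndufs3 in migratory dendritic cells and that of Ndufs7 in B cells included 0.

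The mitochondrial genes differed between leukocyte types more than the nuclear ones. In B cells all 13 were higher in SCDi, and they summed to 45306 CPM in SCDi and 37138 CPM in vehicle, a log2 ratio of 0.29 (0.27 to 0.31). In pDCs 12 of 13 were higher, with sums of 40808 CPM in SCDi and 34985 CPM in vehicle (0.22, 0.21 to 0.24). Monocytes had 13 of 13 higher (22603 CPM in SCDi, 20408 CPM in vehicle, 0.15), T cells 12 (28853 CPM in SCDi, 26852 CPM in vehicle, 0.10) and NK cells 11 (23948 CPM in SCDi, 22811 CPM in vehicle, 0.07). In macrophages the sums were equal within counting error (16929 CPM in SCDi, 16978 CPM in vehicle), and 7 of 13 genes were higher. Microglia had 10 of 13 higher with sums of 38042 CPM in SCDi and 37716 CPM in vehicle, and cDC2 had 6 of 13 higher with a sum ratio of -0.04. Sums were 17341 CPM in SCDi and 17124 CPM in vehicle cells with both sets. In migratory dendritic cells they were 9875 CPM in SCDi and 9390 CPM in vehicle. For comparison, the share of all genes higher in SCDi ran from 41.9% in migratory dendritic cells to 54.1% in cDC2. Barcodes over 15% mitochondrial UMIs made up 4.77% of the SCDi and 5.09% of the vehicle immune library.

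mt-Nd3 and mt-Nd4l, both short subunits of complex I, were higher in SCDi in all 10 leukocyte types, which share the same pair of immune libraries. The number of all genes higher in all 10 was not counted. mt-Nd3 had 141 CPM in SCDi and 120 CPM in vehicle macrophages, 210 CPM in SCDi and 156 CPM in vehicle monocytes, and 635 CPM in SCDi and 390 CPM in vehicle B cells, with log2 ratios from 0.23 to 0.73. Those of mt-Nd4l ran from 0.10 in pDCs (-0.27 to 0.46) to 0.94 in NK cells. Its interval in migratory dendritic cells also included 0 (0.46, -0.10 to 1.01), on 51 UMIs in SCDi and 67 in vehicle. mt-Atp8, of the ATP synthase, was higher in 9 of 10, by up to 1.09 in NK cells, though on as few as 20 UMIs. These are the 3 shortest mitochondrial genes, at 348 bases for mt-Nd3, 297 for mt-Nd4l and 204 for mt-Atp8, while mt-Nd5, lowest in tumour cells, is the longest at 1824 bases. In tumour cells the ratios were 0.05 for mt-Nd3, 0.06 for mt-Nd4l and -0.07 for mt-Atp8, and mt-Nd5 was itself higher in 9 of the 10 leukocyte types.

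**Figure D4:**
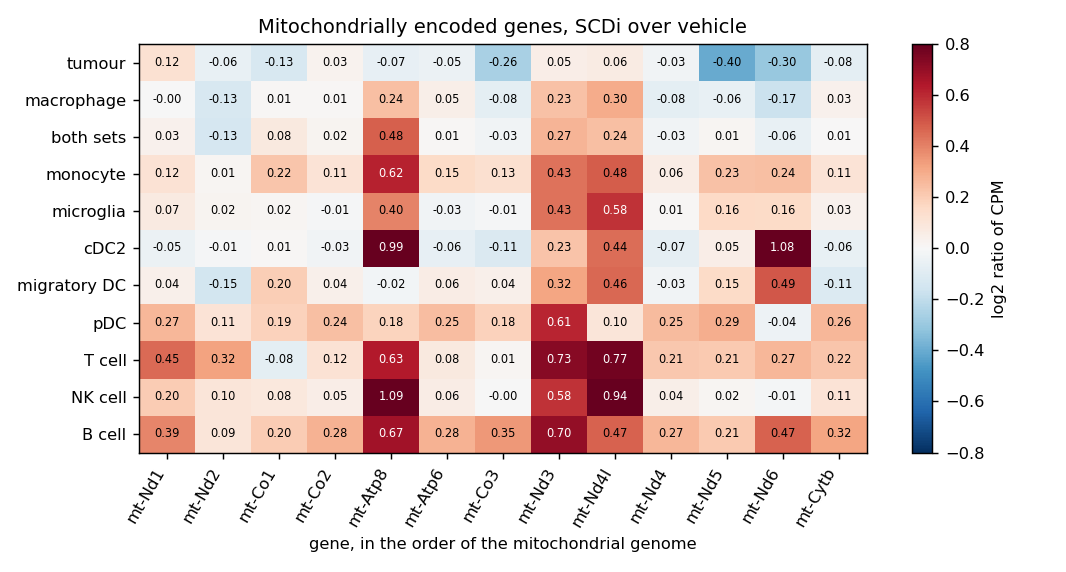
Log2 ratio of CPM, SCDi over vehicle, of the 13 mitochondrially encoded genes (columns, in genome order) in 11 cell types (rows); red is higher in SCDi, blue higher in vehicle, and the colour ends at ±0.8. The columns of mt-Nd3 and mt-Nd4l are red in every row, and the tumour row holds the lowest value, -0.40 for mt-Nd5.

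Other list results in macrophages ran beside those of the chain. The 18 tricarboxylic acid cycle genes were higher in 15, with a median log2 ratio of 0.14, and 16 lay above the median of their length class. Mitochondrial ribosomal protein genes were higher in 70 of 78, with a median of 0.16, and 57 lay above the median of their length class. Hypoxia and glycolysis genes were higher in 3 of 21, with a median of -0.17, and 4 lay above the median of their length class. Of all genes in macrophages 48.1% were higher. In microglia mitochondrial ribosomal protein genes were higher in 43 of 78, in NK cells in 43 of 78, in migratory dendritic cells in 34 of 76 and in B cells in 37 of 78. These are shares of 55.1% in microglia and in NK cells, 44.7% in migratory dendritic cells and 47.4% in B cells, against 44.3% of all genes in microglia, 52% in NK cells, 41.9% in migratory dendritic cells and 47.4% in B cells.

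The share of all UMIs taken by the chain differed more between cell types than between treatments. Nuclear genes took the largest share in tumour cells, 2.44% in SCDi and 2.36% in vehicle. T cells followed with 2.16% in SCDi and 1.92% in vehicle, then pDCs (1.97% in SCDi, 1.76% in vehicle) and macrophages (1.97% in SCDi, 1.74% in vehicle). Migratory dendritic cells had the smallest share among the compared types, 1.34% in SCDi and 1.32% in vehicle. Neutrophils, with 47 cells in SCDi and 64 in vehicle and too few in SCDi to be compared, had 0.692% in SCDi and 0.780% in vehicle.

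Mitochondrial genes followed another order. B cells had the largest share, 4.53% in SCDi and 3.71% in vehicle, followed by pDCs (4.08% in SCDi, 3.50% in vehicle), microglia (3.80% in SCDi, 3.77% in vehicle), and T cells (2.89% in SCDi, 2.69% in vehicle). NK cells had 2.39% in SCDi and 2.28% in vehicle, and tumour cells 2.36% in SCDi and 2.51% in vehicle. Macrophages had 1.69% in SCDi and 1.70% in vehicle, and migratory dendritic cells 0.988% in SCDi and 0.939% in vehicle. The ratio of nuclear to mitochondrial UMIs was 0.354 in SCDi and 0.420 in vehicle B cells, 1.03 in SCDi and 0.940 in vehicle tumour cells, and 1.36 in SCDi and 1.40 in vehicle migratory dendritic cells. Over the 11 types the nuclear and mitochondrial levels had a Pearson r of 0.07 in SCDi and 0.17 in vehicle; 10 of these points share a library and the types differ in depth. A lower share cannot be told apart from more RNA of other genes.

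**Figure D5:**
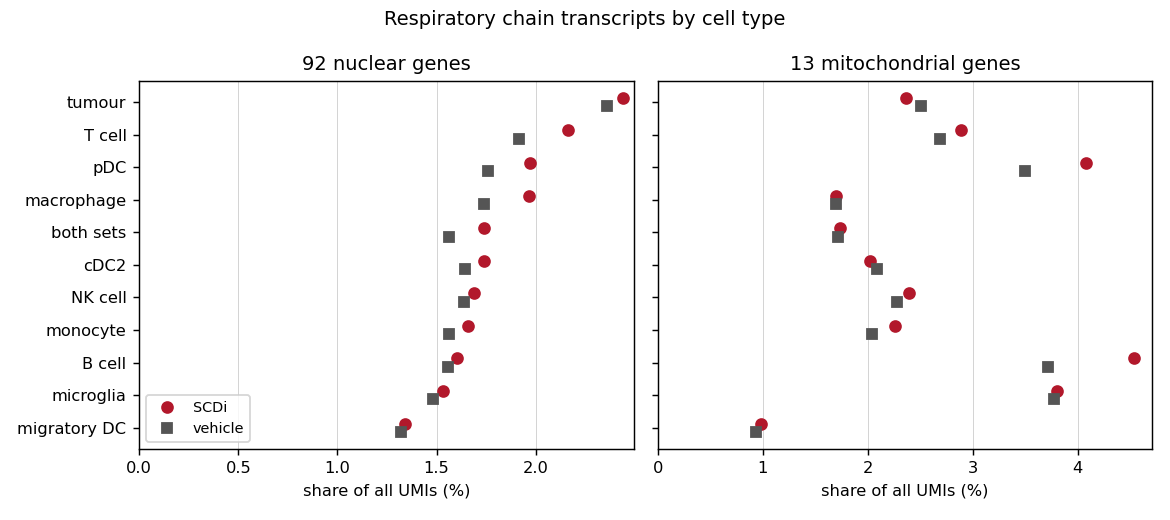
Percent of all UMIs (x axis, from 0) in the 92 nuclear genes (left) and in the 13 mitochondrial genes (right) for 11 cell types, with red circles for SCDi and grey squares for vehicle, 1 library each. Tumour cells lead on the left with 2.44% in SCDi, while B cells lead on the right with 4.53% in SCDi, and on the right panel the red circle lies left of the grey square in tumour cells, in cDC2 and, slightly, in macrophages.

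Tumour cells and macrophages, the largest group of each sort, differed by complex. In SCDi 16 of 92 nuclear genes were at least 2-fold higher in tumour cells than in macrophages, against 32% of all genes, and 6 were at least 2-fold lower, against 24.8%. In vehicle 22 of 91 were at least 2-fold higher, against 32.1%, and 3 at least 2-fold lower, against 24.6%. The shares of members past 2-fold were thus below those of all genes in both directions. All 13 mitochondrial genes were higher in tumour cells in both treatments, with summed folds of 1.39 in SCDi and 1.48 in vehicle. Their median log2 ratio was 0.55 in SCDi and 0.64 in vehicle, against 0.23 in SCDi and 0.24 in vehicle over all genes. Single mitochondrial genes ranged from 0.02 (mt-Co3) to 1.83 (mt-Nd5) in SCDi and from 0.11 (mt-Nd1) to 2.17 (mt-Nd5) in vehicle. The nuclear genes of complex III summed to 2601 CPM in tumour cells and 1631 CPM in macrophages in SCDi, a fold of 1.59, and complex II to 386 CPM in tumour cells and 512 CPM in macrophages, a fold of 0.754. Among the nuclear groups the assembly factors had the largest ratio, 605 CPM in tumour cells and 308 CPM in macrophages, a fold of 1.97 in SCDi, and 1.97 in vehicle. These libraries also differ by sort and depth.

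There were 3 members at least 4-fold higher in 1 cell type than in every other compared type, in both treatments. The number of all genes that pass this rule was not counted. Cox7b2 (ENSMUSG00000049387, chromosome 5, 71442824 to 71548205, mm10), an isoform of a small complex IV subunit whose human counterpart is known from testis, had 18951 UMIs (57.8 CPM) in SCDi and 19406 UMIs (63.6 CPM) in vehicle tumour cells. In macrophages it had 1 UMI in SCDi and 5 in vehicle, in cells with both sets 1 in SCDi and 2 in vehicle, and in the other 8 leukocyte types none, where a count of 0 (fewer than 3 counts) allows from 0.149 CPM (monocytes) to 2.63 CPM (B cells) in SCDi and from 0.156 CPM (monocytes) to 2.89 CPM (B cells) in vehicle. The common isoform Cox7b (ENSMUSG00000031231, chromosome X) was found in every type, with 437 CPM in SCDi and 436 CPM in vehicle tumour cells and from 149 to 361 CPM in SCDi leukocytes.

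Cox6a2 (ENSMUSG00000030785, chromosome 7, 128205435 to 128206387), the isoform of complex IV subunit 6a known from heart and skeletal muscle, had 1189 CPM in SCDi and 969 CPM in vehicle pDCs, from 1551 UMIs in SCDi and 1634 in vehicle. Microglia were next, with 38.6 CPM in SCDi and 37.4 CPM in vehicle, and tumour cells were lowest with 0.274 CPM in SCDi and 0.177 CPM in vehicle. In cDC2 the gene had 41 UMIs (16.9 CPM) in SCDi and 7 UMIs (2.29 CPM) in vehicle, beside a sum of the 8 pDC markers of 1685 CPM in SCDi and 1539 CPM in vehicle cDC2 and of 15183 CPM in SCDi and 15736 CPM in vehicle pDCs; the part of pDC RNA in that difference was not tested. The common isoform Cox6a1 ranged from 162 to 265 CPM over the 11 types in SCDi and from 162 to 226 CPM in vehicle.

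Ndufaf2 (ENSMUSG00000068184, chromosome 13, 108002715 to 108158623), a late assembly factor of complex I, had 194 CPM in SCDi and 196 CPM in vehicle tumour cells. The next highest types were T cells in SCDi, at 41.8 CPM, and NK cells in vehicle, at 31.3 CPM. Ndufaf3 showed the opposite order, with 8.17 CPM in SCDi and 8.96 CPM in vehicle tumour cells and a fold over macrophages of 0.190 in SCDi and 0.239 in vehicle.

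The other isoform groups of complex IV each held at least 1 common and at least 1 rare member. Cox4i1 ranged from 642 to 1029 CPM over the SCDi types and from 675 to 1085 CPM over the vehicle types, highest in tumour cells in both, while its lung isoform Cox4i2 was at or below 1.31 CPM in all of them. Cox6b2, a testis isoform, was highest in cDC2, with 15.7 CPM in SCDi and 14.4 CPM in vehicle, from 38 UMIs in SCDi and 44 in vehicle, beside 418 CPM in SCDi and 370 CPM in vehicle for the common Cox6b1. Cox7a1, the muscle isoform, was highest in macrophages, with 7.21 CPM in SCDi and 6.69 CPM in vehicle, beside 396 CPM in SCDi and 350 CPM in vehicle for the common Cox7a2. Ndufa4l2, induced by hypoxia, was found almost only in tumour cells, with 218 UMIs (0.665 CPM) in SCDi and 168 UMIs (0.551 CPM) in vehicle, and at most 2 UMIs in any leukocyte type. The muscle isoform Cox8b had 1 UMI, in SCDi tumour cells.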

How the data were processed

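The deposited matrices are unnormalized UMI counts, genes by barcodes, for 4 droplet libraries of mouse cells, 1 per group and 3 pooled mice each. The submitters' processing notes name Cell Ranger 7.1.0 and the build mm10, and whether intronic reads were counted is not given in the sources used here. Depth per library stands with the results. No cell annotation was used, so cells were gated by marker genes. The members, lists and markers were chosen with earlier results of these data known, and the gate thresholds after these data were seen.

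Barcodes with at least 300 genes and at most 15% mitochondrial UMIs were kept, 8895 SCDi tumour, 7453 vehicle tumour, 6453 SCDi immune and 6959 vehicle immune. T, NK and B cells needed 5 of their 8, 8 and 7 markers with a UMI, microglia 5 of 7, migratory dendritic cells and cDC2 5 of 8, pDCs 6 of 8, macrophages 6 of 8 and monocytes 5 of 7. A second gate was not passed, except that microglia could also pass the macrophage gate and pDCs the cDC2 gate. Macrophages, monocytes and cells with both sets also had to be at least 2 markers short of the gate of every other leukocyte type. All leukocytes had fewer than 3 UMIs of Krt8. Cells with both sets passed the macrophage and the monocyte gate. Gates favour deeper cells and left 24.3% of SCDi and 28.3% of vehicle immune cells unassigned. No doublet caller was run, and only the exclusive gates act against doublets.

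UMIs were summed per type and library, scaled to CPM of all UMIs, and compared as log2 ratios with 0.5 counts added. "All genes" are those at 5 CPM or more in either library of a type, and members were counted at the same level. Named genes were the 2 highest and 2 lowest nuclear members at 20 CPM or more in each complex in tumour cells, the highest and lowest in each leukocyte type, all mitochondrial genes, members at 4-fold over every other type, isoform groups, and the 2 highest and 2 lowest of each list in tumour cells; others in the text were chosen after their values were seen. Gene positions and transcript lengths came from GENCODE M21, on the same build. Alternatives covered filters, gates, scaling, counts added, cells without Mki67 or Top2a, chromosome medians and, added after seeing the data, transcript length classes and tumour cells with at least 5000 UMIs. The interval was tested on simulated counts. Tools were Python 3.11.15, numpy 2.4.6, scipy 1.17.1 and pandas 2.3.3.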

Additional observations from a re-analysis of the deposited data

Results flagged for a closer look

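The summed mitochondrial UMIs had a log2 ratio of SCDi over vehicle of -0.09 in tumour cells and one of the opposite sign in 8 leukocyte types, with counting intervals on opposite sides of 0. The ratio was 0.29 in B cells, 0.22 in pDCs, 0.15 in monocytes, 0.10 in T cells, 0.073 in migratory dendritic cells, 0.070 in NK cells, 0.018 in cells with both the macrophage and monocyte sets, and 0.012 in microglia. With 1 library per group the difference between tumour cells and these types was not tested, and the 8 types share the same pair of immune libraries.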

How the results depend on the processing

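No paired analysis was possible because each group has 1 library, and no replicate could be left out. Of 24 counts of members tried under other settings, 4 moved by over 1.5 times under 1 setting each. The mitochondrial genes higher in SCDi tumour cells numbered 8 of 13 in cells without Mki67 or Top2a, and those in macrophages 11 of 13 with all deposited barcodes. The nuclear genes higher in SCDi microglia numbered 37 of 91 when CPM was averaged cell by cell. The nuclear genes at least 2-fold higher in vehicle tumour cells than in vehicle macrophages numbered 13 with scaling by the median of ratios. The causes were not tested.

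Cells without Mki67 or Top2a also reversed the median of the mitochondrial genes in tumour cells to 0.044, mt-Nd2 to 0.038, mt-Atp8 to 0.059, mt-Atp6 to 0.044 and mt-Nd4 to 0.051. The average over cells reversed mt-Co2 to -0.017, subtraction of the chromosome median turned Ndufa13 to 0.018, and subtraction of the length class median turned Atp5l to -0.041. Over all settings the nuclear genes higher in SCDi numbered 47 to 70 in tumour cells, 70 to 85 in macrophages and 59 to 82 in T cells. They numbered 37 to 73 in microglia, 40 to 72 in B cells and 38 to 56 in migratory dendritic cells. Over the settings the median log2 ratio of the nuclear genes changed sign in these last types. It ran from -0.03 to 0.11 in microglia, from -0.03 to 0.18 in B cells and from -0.02 to 0.05 in migratory dendritic cells. Tumour cells with at least 5000 UMIs, a setting added after seeing the data, gave 62 nuclear and 4 mitochondrial genes. Rare types limit precision: B cells held 1142086 UMIs in SCDi and 1039794 in vehicle, tumour cells 327952355 in SCDi and 304957209 in vehicle.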
